A study of Mus musculus with 12 samples.

Results

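The DNA replication and S-phase genes were followed in bone marrow cells of aged and young mice. The 54 members were chosen by name from the machinery of DNA synthesis, and all were present among the 23420 genes of the deposited count table. They comprised 11 genes of origin licensing, 9 of origin firing and the replicative helicase, 9 of the DNA polymerases and primase, 11 of the sliding clamp, its loader, the single-strand binding complex and ligation, 5 of deoxynucleotide supply, 4 of chromatin assembly and histone mRNA, and 5 of the E2F and cyclin E module.

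RNA was taken from CD11b+Ly6G-Ly6Chi cells, termed M-MDSCs (monocytic myeloid-derived suppressor cells), that had been stained for these antigens and isolated from bone marrow on a cell sorter, with the tibia given as the tissue. The donors were male C57BL/6JNIA mice, and the groups differed in age. The young group held 6 mice at an age of 6 months, the aged group 6 mice at 24 months, and each mouse gave 1 stranded, paired-end library. The comparison asks how the transcripts of this module differ with age in these cells.

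Replication begins in G1, when the origin recognition complex, Cdc6 and Cdt1 load the MCM2-7 helicase on DNA, a step called licensing that geminin blocks once S phase has begun. The kinases Cdc7-Dbf4 and cyclin E-Cdk2 then fire origins by adding Cdc45 and the GINS complex to the helicase, and polymerase α-primase, δ and ε copy the strands with the clamp PCNA and its loader RFC. Many of these genes are switched on together at the border of G1 and S by E2F factors once the retinoblastoma protein is phosphorylated, and the atypical factors E2F7 and E2F8 repress them again. In the myeloid lineage of the marrow, progenitors and early precursors divide, and division ends as the cells mature.

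E2F sites in promoters are the sequence feature that replication genes are best known to share, so the promoters of members were searched for the words TTTCCCGC, TTTCGCGC, TTTGCCGC and TTTGGCGC, and for CCAAT, the box bound by NF-Y, on both strands. A promoter here was the window of 300 bases, 250 before and 50 after an annotated start, in the RefSeq annotation of GRCm38.p6. Such windows were at hand for 44 of the 54 members, in all 52 promoters, since a gene may have more than 1 start. An E2F word was present in 16 of the 52 promoters (30.8%) and in 744 of all 32851 promoters (2.26%), or in 4.17% of the promoters of genes tested for age. The word TTTGCCGC was in no member's promoter, and each of the other E2F words was in 7 promoters. CCAAT was found in 29 of the 52 promoters (55.8%) and in 37.4% of all promoters. A match of letters is a description of the sequence and was not taken as a bound site.

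E2F words lay in the promoters of Cdc6, Cdt1, Mcm3, Mcm5, Mcm6, Mcm7, Orc1, Gins3, Lig1, Pola1, Pold1, Pold3, Pole2, Rfc3, Uhrf1 and E2f2. Of these Pola1 and Pold3 were lower in aged mice, Orc1 was too low to be tested and the other 13 passed no test for age. For the licensing genes and Pola1 the first match is shown with 10 bases on either side, 5′ to 3′ on the strand that reads the word, in lower case with the E2F word in capitals.
Cdc6: ccccaggcgaTTTCCCGCtctccaccgg
Cdt1: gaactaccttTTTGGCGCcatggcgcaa
Mcm3: cttcccaagtTTTCCCGCcacggaagtt
Mcm5: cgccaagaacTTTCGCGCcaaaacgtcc
Mcm6: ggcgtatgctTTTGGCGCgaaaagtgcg
Mcm7: ggacaccctgTTTCCCGCggttcgaaat
Orc1: ggagaaaactTTTCGCGCcactaaccga
Pola1: cgggagtgcaTTTGGCGCcctgtgatga
The centre of the word lay at -134 relative to the start in Cdc6, at -149 in Mcm5, at -106 in Mcm6 and at -134 in Pola1, and after the start, at 36 and 23, in Cdt1 and Mcm3. The Mcm5 and Mcm6 promoters each held overlapping words on the opposite strands, which were counted separately. Among members lower in aged mice, 2 of 7 with a window held an E2F word, and among members that passed no test 13 of 36 did.

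For the members with the smallest p-values that held a searched word, the whole promoter is shown on the strand of the gene, with every E2F word and CCAAT box (ATTGG on the opposite strand) in capitals. Rfc1, E2f8, Chaf1a and Mcm10 held CCAAT boxes and no E2F word, and Pold3 held an E2F word and no CCAAT box.
Rfc1, chr5:65335590-65335889 on the minus strand: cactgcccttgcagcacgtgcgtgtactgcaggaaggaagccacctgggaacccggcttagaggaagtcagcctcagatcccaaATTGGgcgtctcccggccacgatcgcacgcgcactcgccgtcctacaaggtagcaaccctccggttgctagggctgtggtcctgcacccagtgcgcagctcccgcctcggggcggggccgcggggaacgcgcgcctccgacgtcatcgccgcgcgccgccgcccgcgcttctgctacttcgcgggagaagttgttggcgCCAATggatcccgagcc
E2f8, chr7:48881547-48881846 on the minus strand: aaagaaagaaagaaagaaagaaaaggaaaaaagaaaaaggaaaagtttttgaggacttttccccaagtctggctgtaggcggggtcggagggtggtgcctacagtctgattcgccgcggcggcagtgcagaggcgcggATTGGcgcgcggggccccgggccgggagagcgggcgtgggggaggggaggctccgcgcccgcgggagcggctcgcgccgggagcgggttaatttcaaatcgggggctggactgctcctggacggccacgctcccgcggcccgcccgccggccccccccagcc
Chaf1a, chr17:56040166-56040465 on the plus strand: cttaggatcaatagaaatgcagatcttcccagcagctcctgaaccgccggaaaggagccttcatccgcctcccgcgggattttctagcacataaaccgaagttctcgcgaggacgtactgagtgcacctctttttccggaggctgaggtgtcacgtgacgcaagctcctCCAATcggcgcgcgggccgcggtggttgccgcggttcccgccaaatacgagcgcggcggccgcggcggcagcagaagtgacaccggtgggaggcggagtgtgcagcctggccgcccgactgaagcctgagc
Mcm10, chr2:5012742-5013041 on the minus strand: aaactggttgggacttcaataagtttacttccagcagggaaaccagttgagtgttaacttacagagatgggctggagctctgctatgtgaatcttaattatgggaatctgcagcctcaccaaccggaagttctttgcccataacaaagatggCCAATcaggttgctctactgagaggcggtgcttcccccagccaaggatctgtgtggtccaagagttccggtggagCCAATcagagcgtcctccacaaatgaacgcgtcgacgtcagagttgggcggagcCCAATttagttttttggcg
Pold3, chr7:100121453-100121752 on the minus strand: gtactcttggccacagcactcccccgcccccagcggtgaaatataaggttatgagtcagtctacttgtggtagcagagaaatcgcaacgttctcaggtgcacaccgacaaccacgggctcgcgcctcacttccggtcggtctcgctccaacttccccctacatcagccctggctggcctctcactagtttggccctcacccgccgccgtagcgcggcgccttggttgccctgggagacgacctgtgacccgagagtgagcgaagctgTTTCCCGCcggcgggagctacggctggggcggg
The Mcm10 promoter held 3 CCAAT boxes, that of Rfc1 held 2 and those of E2f8 and Chaf1a held 1 each. The promoters of Cdc7, the member with the largest fall, held neither motif in these windows.

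Library totals ran from 8737941 to 16300374 fragments at 24 months and from 4613239 to 9079237 at 6 months. Levels are counts-per-million values (CPM) relative to the TMM-scaled library total, and changes are given as the log2 fold change of aged relative to young mice with its standard error (SE). A member was called when the adjusted p of edgeR's quasi-likelihood test, over the 9742 genes tested, was under 0.05. The alignment files carry sample numbers that are lower for every young than for every aged mouse, and what these numbers mark is not stated. If they mark a batch or an order of preparation, it cannot be told apart from age. The sort was checked against marker genes. The cells held much RNA of Itgam, which encodes CD11b, at 2660 to 3481 CPM in aged and 3269 to 3543 CPM in young mice, and of Ly6c2, at 605 to 799 CPM in aged and 367 to 595 CPM in young mice. The gene of Ly6G, the remaining antigen of the sort gate, was not among the markers. By edgeR's quasi-likelihood test Itgam was lower with age (log2 fold change -0.22, adjusted p = 0.0285) and Ly6c2 higher without overlap (0.54, adjusted p = 0.00265). Neither was called after a correction for gene length within each library (-0.052 and 0.12), and Itgam was not called without the young mice 5 and 6 (-0.21). The monocyte genes Ccr2 (5.03 to 62 CPM in aged and 23.9 to 54.7 CPM in young mice) and F13a1 (2.57 to 44 CPM and 17.6 to 39.2 CPM) were low beside the neutrophil granule gene Ngp, at 34273 to 44393 CPM in aged and 24875 to 35745 CPM in young mice. Csf1r stood between them, at 93.1 to 205 CPM in aged and 111 to 150 CPM in young mice. Of the 8 markers of classical monocytes, 2 were higher in aged mice, Ly6c2 and Cd14 (1.11, also called after the length correction and without the young mice 5 and 6), and Itgam was lower. With neutrophil granule RNA far above that of these monocyte genes, the M-MDSC label is used here for the sort gate. Of 9 tested markers of promyelocytes and neutrophil precursors, 6 were higher in aged mice, beside 22.4% of all genes, and 0 were lower. Prtn3 (1.54), Elane (1.25) and Mpo (0.99) were among them. After the length correction 2 were higher, Mpo (0.96) and Prtn3 (1.17), and 2 were lower, Cebpe (-0.23) and Fcnb (-0.41), and without the young mice 5 and 6 3 were higher. The list summed to 56088 to 75495 CPM in aged and 47981 to 64069 CPM in young mice. Of 7 neutrophil markers, 3 were higher and 0 lower, beside 22.4% and 23% of all genes. After the length correction 0 were called in either direction, and without the young mice 5 and 6 2 were higher. The 8 macrophage markers were all higher in aged mice, also after the length correction and, but for Emr1, without the young mice 5 and 6, with a summed level of 83.3 to 1000.2 CPM against 70.9 to 88.2 CPM. The summed level of the 10 erythroid genes was 1.85 to 13.5 CPM in aged and 0.586 to 1.5 CPM in young mice, higher in every aged mouse, with the globin genes Hba-a1 and Hba-a2 at 0 in every mouse. That of the 9 B cell genes was at most 12.6 CPM. The part of other cells, and of the maturity of the sorted cells, in the results on replication genes was not tested.

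The libraries of the young mice 5 and 6 stood apart from those of the other young mice. Counts of these mice differed by a chi-square per gene of 4.18 from each other and of 22 to 38.1 from the other young mice, which differed among themselves by 1.68 to 5.74. In aged mice the values were 19.3 to 39.1 between the aged mouse 7 and the others, and 5.22 to 20.7 among the others. The measure comes from raw counts and grows with library size. The median library was larger in aged mice, and the aged mouse 7 had the largest of all. The spread of the ages can therefore not be ranked by it. Since the young mice 5 and 6 stood apart, results that rest on them are also given without both, a check chosen after seeing the data. Without them 4 members, Cdc7, Chaf1a, Rfc1 and E2f8, were lower, or 7.84% beside 17.9% of all genes. Rfc2 and Gins4 were higher, or 3.92% beside 14.1% of all genes, while Mcm10, Pola1, Pole and Pold3 were not called. Without the aged mouse 7 10 members were lower, Lig1 and Uhrf1 being added to the 8, and the same 2 were higher. These were 19.6% and 3.92% of the members tested, beside 24% and 24.1% of all genes.

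Most replication genes passed no test for age, and the members that moved were a minority from the firing, polymerase, clamp loader, chromatin and E2F groups. Of 54 members, 51 had enough counts to be tested, 8 were lower and 2 were higher in aged mice, and 41 passed no test. Cdc7, Chaf1a, Rfc1, E2f8, Mcm10, Pola1, Pole and Pold3 were lower, and Rfc2 and Gins4 were higher. The 8 lower members were 15.7% of those tested, while 23% of all genes tested were called lower, and the 2 higher members stood against 22.4% of all genes called higher. The share of lower members was smaller than that of all genes here, but not with the length correction (17.6% of members against 16.5% of all genes) or without the aged mouse 1 (23.5% against 21.7%). The log2 fold change was negative in 35 of the 51 members and in 4821 of the 9742 genes. Its median was -0.12 over the members, with a range from -0.88 to 0.44, and 0.01 over all genes. The members' median stayed negative in every alternative fit, from -0.18 without the aged mouse 7 to -0.061 without the aged mouse 5 over the mice left out in turn, at -0.22 with the length correction and at -0.077 without the young mice 5 and 6. No tested member fell by more than 2-fold, while 2.53% of all genes were called lower by more than 2-fold. Every aged mouse lay below every young mouse in 2 members, Cdc7 and Rfc1, and in 12.1% of all genes. In bulk RNA of sorted cells, fewer cells in S phase and less of a transcript in each cell cannot be told apart.

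**Figure D1:**
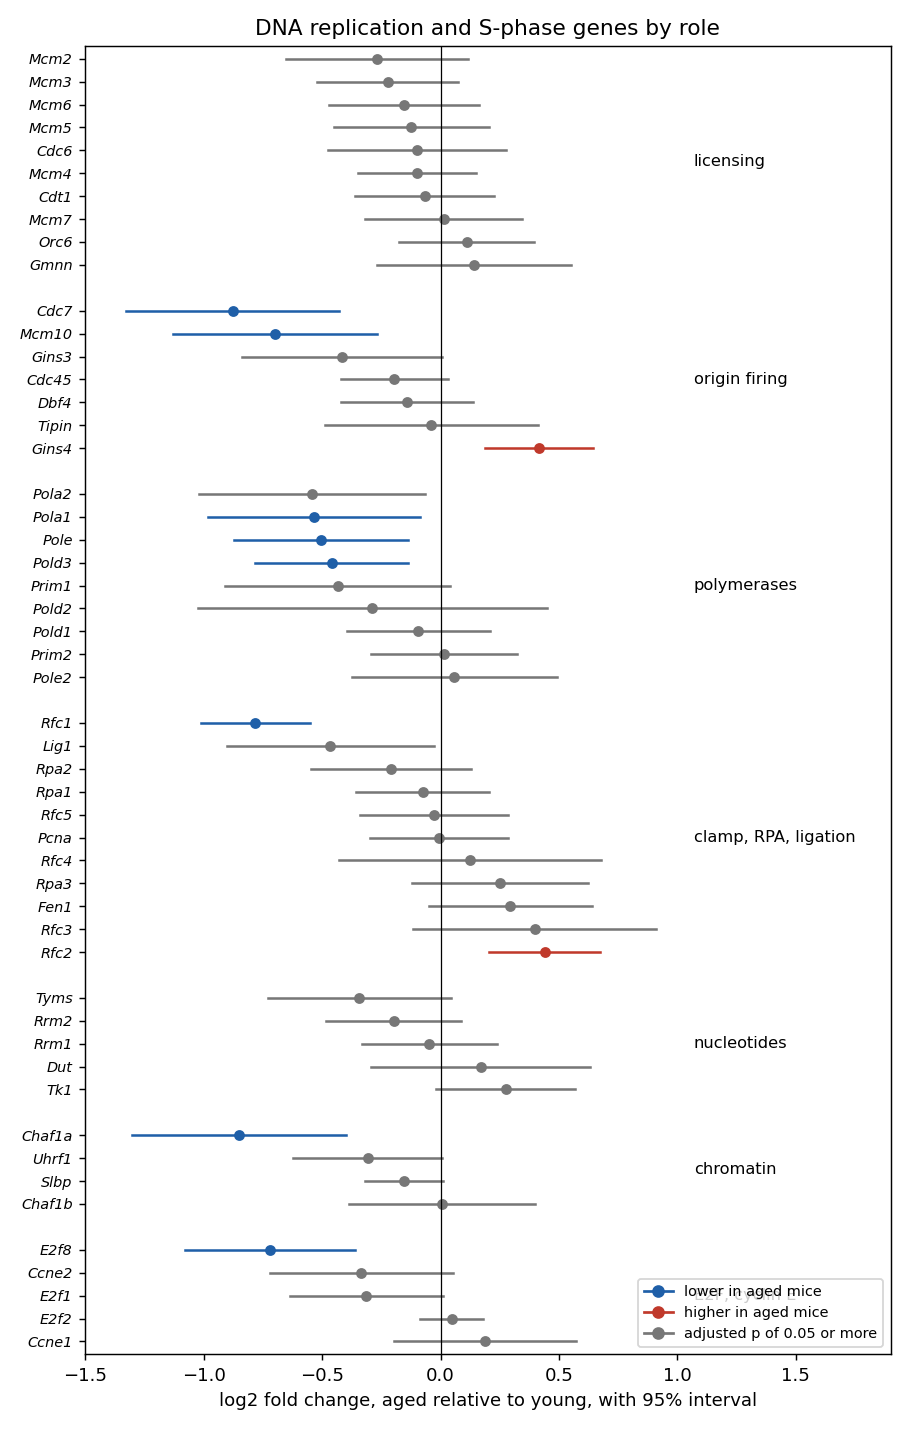
Log2 fold change of aged relative to young mice for the 51 tested members, grouped by role, with 95% intervals from edgeR's quasi-likelihood fit (6 mice of each age). Blue members were lower and red members higher in aged mice at an adjusted p under 0.05. All 10 licensing genes sit near 0, and the called falls, from -0.88 to -0.46, lie in other roles.

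Origin licensing showed no called change. Of its 11 genes, 10 were tested and 0 were called in either direction by edgeR's quasi-likelihood test. Of all genes 23% were called lower and 22.4% higher. The log2 fold changes of the licensing genes ran from -0.27 to 0.14 with a median of -0.10, and 0 had an unadjusted p under 0.05. Mcm2, a helicase subunit, had the largest difference of the group. It measured 7.49, 11.3 and 17.4 CPM (lowest, median and highest) in aged mice and 10.9, 13.6 and 16.6 CPM in young mice, so the aged mice reached both below and above the young ones. Its log2 fold change was -0.27 (SE 0.18), with an adjusted p of 0.235 in edgeR's quasi-likelihood test. With each mouse left out in turn it ran from -0.42 to -0.17, and it was called lower without the aged mouse 1.

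The ages overlapped in the other helicase subunits too. Mcm3 measured 10.8, 12.9 and 18 CPM in aged and 14.7, 16.1 and 18.2 CPM in young mice, with a log2 fold change of -0.22 (95% interval -0.52 to 0.07). It had the smallest p of the licensing genes, 0.204 after edgeR's adjustment. Mcm4 measured 20.8, 22.2 and 32 CPM against 23.3, 26.4 and 29.7 CPM (log2 fold change -0.10, interval -0.35 to 0.15). The ages overlapped in each of these genes.
Mcm5 measured 25.9, 35.5 and 43.2 CPM in aged and 29.5, 39.2 and 47 CPM in young mice (log2 fold change -0.12, interval -0.45 to 0.20). Mcm6 measured 14, 20 and 28.3 CPM in aged and 20.5, 22.9 and 25.1 CPM in young mice (-0.15, interval -0.47 to 0.16). Mcm7 measured 20.4, 26.9 and 37.3 CPM in aged and 23, 25.8 and 35.5 CPM in young mice (0.01, interval -0.32 to 0.35). In Mcm6 and Mcm7 the aged mice 4, 5 and 6 lay below all young mice, at 14 to 16.9 CPM and at 20.4 to 22.3 CPM, while the aged mouse 7 had the highest value of all 12.

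The loading factors were low and alike at both ages. Cdc6, an ATPase of the loader, measured 2.84, 4.31 and 5.24 CPM in aged and 3.24, 4.59 and 4.99 CPM in young mice (log2 fold change -0.10, interval -0.48 to 0.28). Cdt1, which brings MCM2-7 to the origin, measured 5.88, 8.44 and 10.5 CPM against 8.2, 8.8 and 9.6 CPM (-0.07, interval -0.36 to 0.23). Gmnn, which encodes geminin, the inhibitor of Cdt1, had the largest rise of the group, at 4.08, 4.53 and 7.52 CPM against 3.55, 4.42 and 6.36 CPM (0.14, interval -0.27 to 0.55). The ratio of Cdt1 to its inhibitor differed by -0.21 on the log2 scale between the ages (exact two-sided permutation test over mice, p = 0.31, adjusted p = 0.31 over 16 ratios).
Orc6, the smallest subunit of the origin recognition complex, measured 4.83, 5.68 and 6.36 CPM in aged and 4.07, 5.24 and 6.08 CPM in young mice (0.11, interval -0.18 to 0.39). Orc1, its ATPase subunit, had 0 to 11 counts in aged and 1 to 7 counts in young mice and was not tested.

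Levels per kilobase of exon are a rough scale for setting different genes side by side. On it the helicase subunits lay within a 2.79-fold span in young and a 3.38-fold span in aged mice. Mcm7 was highest at both ages (11.3 CPM per kilobase in young, 11.5 in aged) and Mcm2 lowest (4.06 and 3.39). The subunits of GINS and of RFC were far less even. Gins4 stood at 10.3 CPM per kilobase in young mice and Gins1 at 0.48, a span of 21.5-fold. Rfc2 stood at 28.1 and Rfc3 at 1.75 CPM per kilobase in young mice, a span of 16-fold. In young mice Gins1 had 0 to 10 counts and was not tested, and Rfc3 had 9 to 22 counts, so these spans are rough. As measured, RNA levels of partners in 1 complex were not matched in these cells at either age.

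**Figure D2:**
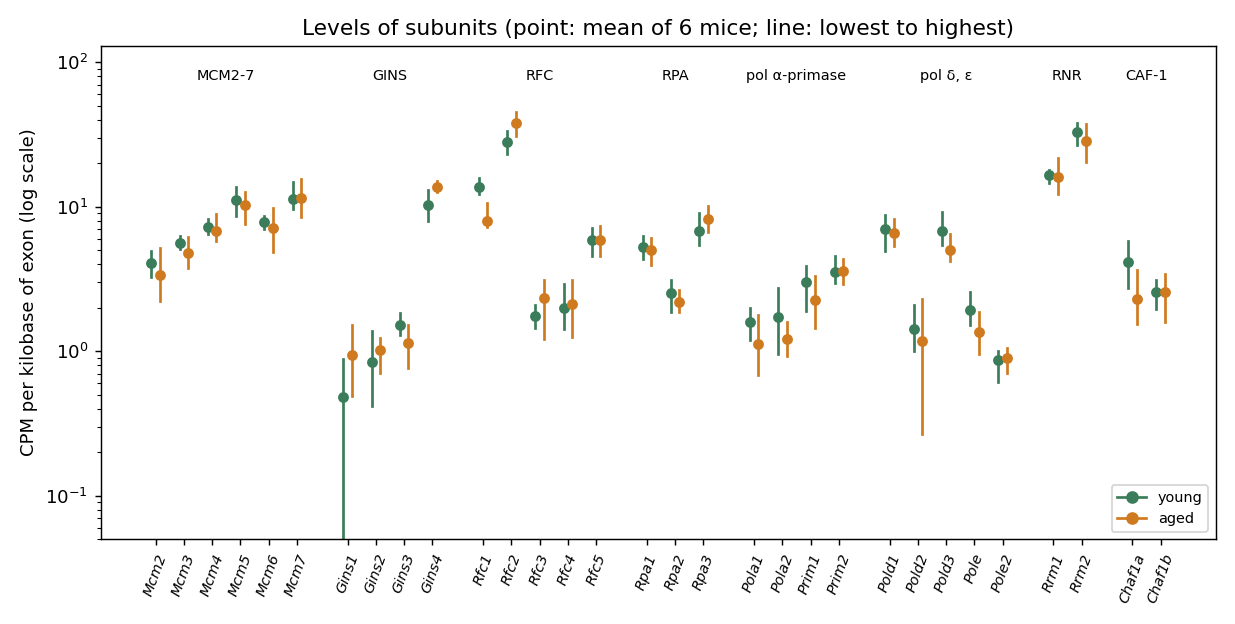
CPM per kilobase of exon, on a log scale, for subunits of replication complexes (RNR, ribonucleotide reductase; CAF-1, chromatin assembly factor 1) in young and aged mice; points are means and lines run from the lowest to the highest of 6 mice, the young Gins1 line running down to 0. MCM2-7 subunits lie within a 3.38-fold span, GINS and RFC subunits within spans of 14.6-fold or more.

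Among the genes of origin firing, 2 of 7 tested were lower and 1 was higher in aged mice, beside 23% and 22.4% of all genes. Cdc7, the kinase that phosphorylates MCM2-7 to fire origins (mm10 chr5:106964322-106984439, plus strand), had the largest fall of all members. It measured 5.56, 9.01 and 10.3 CPM in aged and 11, 12.9 and 23.3 CPM in young mice, and the ages did not overlap. The young mice 5 and 6 stood above the rest at 23.3 and 23.1 CPM. The log2 fold change was -0.88 (SE 0.21, adjusted p = 0.00388 in edgeR's quasi-likelihood test), and with any 1 mouse left out it stayed between -0.97 and -0.73 and was called each time. Without both of these mice it was -0.49 (adjusted p = 0.0298 in edgeR's quasi-likelihood test).

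Dbf4, the subunit that activates Cdc7, did not pass the test. It measured 17.6, 20.9 and 28.8 CPM in aged and 18.2, 23.3 and 27.8 CPM in young mice (log2 fold change -0.14, interval -0.42 to 0.14). The ratio of Dbf4 to Cdc7 was higher in every aged mouse than in any young mouse. Its mean was 1.30 ± 0.24 on the log2 scale in aged and 0.64 ± 0.34 in young mice (SD, n = 6 each), a difference of 0.66 (exact two-sided permutation test, p = 0.00216, the smallest that 6 against 6 mice can give, adjusted p = 0.0115 over 16 ratios). With all libraries thinned to the smallest, the difference was 0.46 and missed the threshold (exact permutation test, adjusted p = 0.109).

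Mcm10, which joins the helicase and recruits polymerase α at firing (mm10 chr2:4990724-5012791, minus strand), was also lower. It measured 3.42, 4.94 and 6.47 CPM in aged and 4.69, 7.8 and 10.5 CPM in young mice, with only the young mouse 1, at 4.69 CPM, inside the range of the aged mice. Mcm10 had a log2 fold change of -0.70 (SE 0.20, adjusted p = 0.0112 in edgeR's quasi-likelihood test), which was -0.48 (adjusted p = 0.1) and not called without the young mice 5 and 6.
Gins4 went the other way (mm10 chr8:23226610-23237668, minus strand). This GINS subunit measured 17.4, 18.5 and 20.5 CPM in aged and 10.9, 13.8 and 17.8 CPM in young mice, and a young mouse overlapped the lowest aged one. Its log2 fold change was 0.42 (SE 0.11, adjusted p = 0.00584 in edgeR's quasi-likelihood test), which was 0.18 (adjusted p = 0.153) and not called with the length correction.
Its partner Gins3 measured 1.85, 2.64 and 3.68 CPM in aged and 3.13, 3.53 and 4.45 CPM in young mice and did not pass (-0.42, interval -0.84 to 0.01, adjusted p = 0.0997 in edgeR's quasi-likelihood test). Gins1 (0 to 28 counts over all mice) and Gins2 (4 to 19 counts) were too low to be tested.
Cdc45, the third part of the active helicase, measured 17.7, 21 and 23.7 CPM against 19.7, 23.1 and 28.5 CPM in young mice (-0.19, interval -0.42 to 0.03). Tipin, which steadies the fork with Timeless, measured 4.07, 6.11 and 8.27 CPM against 5.09, 5.68 and 8.79 CPM (-0.04, interval -0.49 to 0.41). Neither was called, and the aged and young ranges of both overlapped widely.

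The polymerase and primase genes held 3 lower members of 9 tested, beside 23% of all genes, and no higher one, and all 3 calls were lost without the young mice 5 and 6. Their median log2 fold change was -0.43 and 7 of 9 were negative. The median was the lowest of the roles in this fit and without the young mice 5 and 6 (-0.28), while with the length correction it was -0.31 and that of the firing genes -0.33. Pola1, the catalytic subunit of polymerase α that starts each Okazaki fragment (mm10 chrX:93304766-93632155, minus strand), measured 3.64, 5.47 and 9.59 CPM in aged and 6.45, 8.67 and 10.6 CPM in young mice, and the ranges overlapped. Its log2 fold change of -0.54 (SE 0.21) passed by a narrow margin, with an adjusted p of 0.0491 in edgeR's quasi-likelihood test, and the call was lost without 8 of the 12 mice in turn.
Pola2, the accessory subunit, had a difference of the same size, and did not pass. It measured 2.68, 3.46 and 4.57 CPM in aged and 2.73, 4.96 and 7.84 CPM in young mice (-0.54, SE 0.22, adjusted p = 0.0605 in edgeR's quasi-likelihood test). Without the aged mouse 1 or the young mouse 1 or 9 it was called, at -0.65 to -0.63. Over all mice left out in turn it ran from -0.65 to -0.35. Without the young mice 5 and 6 together it was -0.28 (adjusted p = 0.38 in edgeR's quasi-likelihood test).
The primase subunits differed from each other in value. Prim1, the catalytic one, measured 2.22, 3.65 and 5.13 CPM against 2.93, 5.03 and 5.97 CPM in young mice (-0.43, interval -0.91 to 0.04). Prim2 measured 5.68, 6.89 and 8.46 CPM against 5.79, 6.77 and 8.9 CPM (0.01, interval -0.29 to 0.32).

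Pold3, the subunit that ties polymerase δ to PCNA (mm10 chr7:100082113-100121500, minus strand), had the smallest p of the polymerases. It measured 12.6, 13.3 and 19.4 CPM in aged and 16.2, 19.5 and 27.5 CPM in young mice. The aged mice 1 and 7, at 18.7 and 19.4 CPM, lay among the young, and the other aged mice lay below all of them. Its log2 fold change was -0.46 (SE 0.15, adjusted p = 0.0224 in edgeR's quasi-likelihood test).
Pole, the catalytic subunit of the leading-strand polymerase ε (mm10 chr5:110286319-110337453, plus strand), measured 6.84, 9.92 and 13.3 CPM in aged and 10.9, 13.2 and 18.4 CPM in young mice. Its log2 fold change was -0.50 (SE 0.17, adjusted p = 0.0266 in edgeR's quasi-likelihood test), with overlapping ranges. The calls of Pold3 and Pole were both lost without the aged mouse 4, 5 or 6 or the young mouse 5, and that of Pold3 also without the aged mouse 2 or the young mouse 6, with log2 fold changes that stayed between -0.55 and -0.36 for Pold3 and between -0.62 and -0.40 for Pole over all mice left out. Without the young mice 5 and 6 together Pold3 was at -0.29, Pole at -0.41 and Pola1 at -0.40.
Pold1, the catalytic subunit of polymerase δ, measured 18.4, 22.7 and 28.3 CPM against 16.8, 23.3 and 30.2 CPM in young mice (-0.09, interval -0.40 to 0.21). Pold2, which joins Pold1 to Pold3, was low and variable, with 0.428, 1.72 and 3.68 CPM against 1.62, 2.26 and 3.36 CPM (-0.29, interval -1.02 to 0.45). Pole2 had the largest rise of the role, at 1.2, 1.57 and 1.8 CPM against 1.04, 1.55 and 1.71 CPM (0.06, interval -0.38 to 0.49). None of these was called.

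In the clamp, clamp loader, RPA and ligation group, 1 of 11 members was lower and 1 was higher, beside 23% and 22.4% of all genes. Both were in the clamp loader. Rfc1, the large subunit of the loader that opens PCNA around DNA (mm10 chr5:65261852-65335639, minus strand), had the smallest p-value of all members. It measured 34.3, 35.5 and 49.9 CPM in aged and 57.7, 61.5 and 75.2 CPM in young mice. The ages did not overlap. The aged mice lay within 34.3 to 36.4 CPM but for the aged mouse 7, at 49.9 CPM, and the young mice 5 and 6 were highest, at 75.2 CPM each. Rfc1 had a log2 fold change of -0.78 (SE 0.11, adjusted p = 9.42e-05 in edgeR's quasi-likelihood test), so that aged mice held 58.2% of the young level. Without the young mice 5 and 6 it was -0.68 (adjusted p = 0.000442 in edgeR's quasi-likelihood test).

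Rfc2, a small subunit of the same loader (mm10 chr5:134582690-134598328, plus strand), was higher in aged mice and had the largest rise of all members. It measured 46.9, 56.3 and 68.9 CPM in aged and 35.4, 43.5 and 51.2 CPM in young mice, and the ranges met in a few mice. Its log2 fold change was 0.44 (SE 0.11, adjusted p = 0.0051 in edgeR's quasi-likelihood test), which was 0.23 (adjusted p = 0.0804) and not called with the length correction. The other small subunits passed no test. Rfc3 measured 1.48, 2.93 and 3.79 CPM against 1.76, 2.08 and 2.54 CPM in young mice (0.40, interval -0.12 to 0.91). Rfc4 measured 1.52, 2.38 and 3.76 CPM against 1.73, 2.07 and 3.55 CPM (0.12, interval -0.43 to 0.68). Rfc5 measured 7.95, 10.2 and 12.8 CPM against 7.93, 10.2 and 12.4 CPM (-0.03, interval -0.34 to 0.28). The ratio of Rfc1 to Rfc4 was lower in aged mice by 0.85 on the log2 scale, which is -0.85 as aged minus young (exact two-sided permutation test, p = 0.0108, adjusted p = 0.0346 over 16 ratios), and this call was lost without 7 of the 12 mice in turn and without the young mice 5 and 6 together (-0.60).

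Pcna, the sliding clamp itself, measured 22.8, 28.7 and 32.7 CPM in aged and 17.4, 31.3 and 33.1 CPM in young mice, with a log2 fold change of -0.01 (interval -0.30 to 0.28). The RPA subunits, which coat single-stranded DNA, were not called. Rpa1 measured 12.3, 15.9 and 18.9 CPM against 13.5, 16.7 and 19.6 CPM in young mice (-0.08, interval -0.36 to 0.20). Rpa2 measured 3.31, 3.74 and 4.7 CPM against 3.32, 4.47 and 5.56 CPM (-0.21, interval -0.55 to 0.13). Rpa3 measured 4.26, 5.14 and 6.45 CPM against 3.47, 3.99 and 5.78 CPM (0.25, interval -0.12 to 0.62). In all of them the aged and young mice overlapped.
Of the enzymes that finish Okazaki fragments, Fen1, the flap nuclease, measured 11.1, 14 and 20.6 CPM in aged and 8.36, 12.2 and 15.3 CPM in young mice (0.29, interval -0.05 to 0.64). Lig1, the ligase, measured 8.9, 12.2 and 22.5 CPM against 14.1, 18.6 and 23.9 CPM (-0.46, interval -0.90 to -0.03, adjusted p = 0.0772 in edgeR's quasi-likelihood test). Lig1 was called without the aged mouse 7, with a log2 fold change of -0.68.

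**Figure D3:**
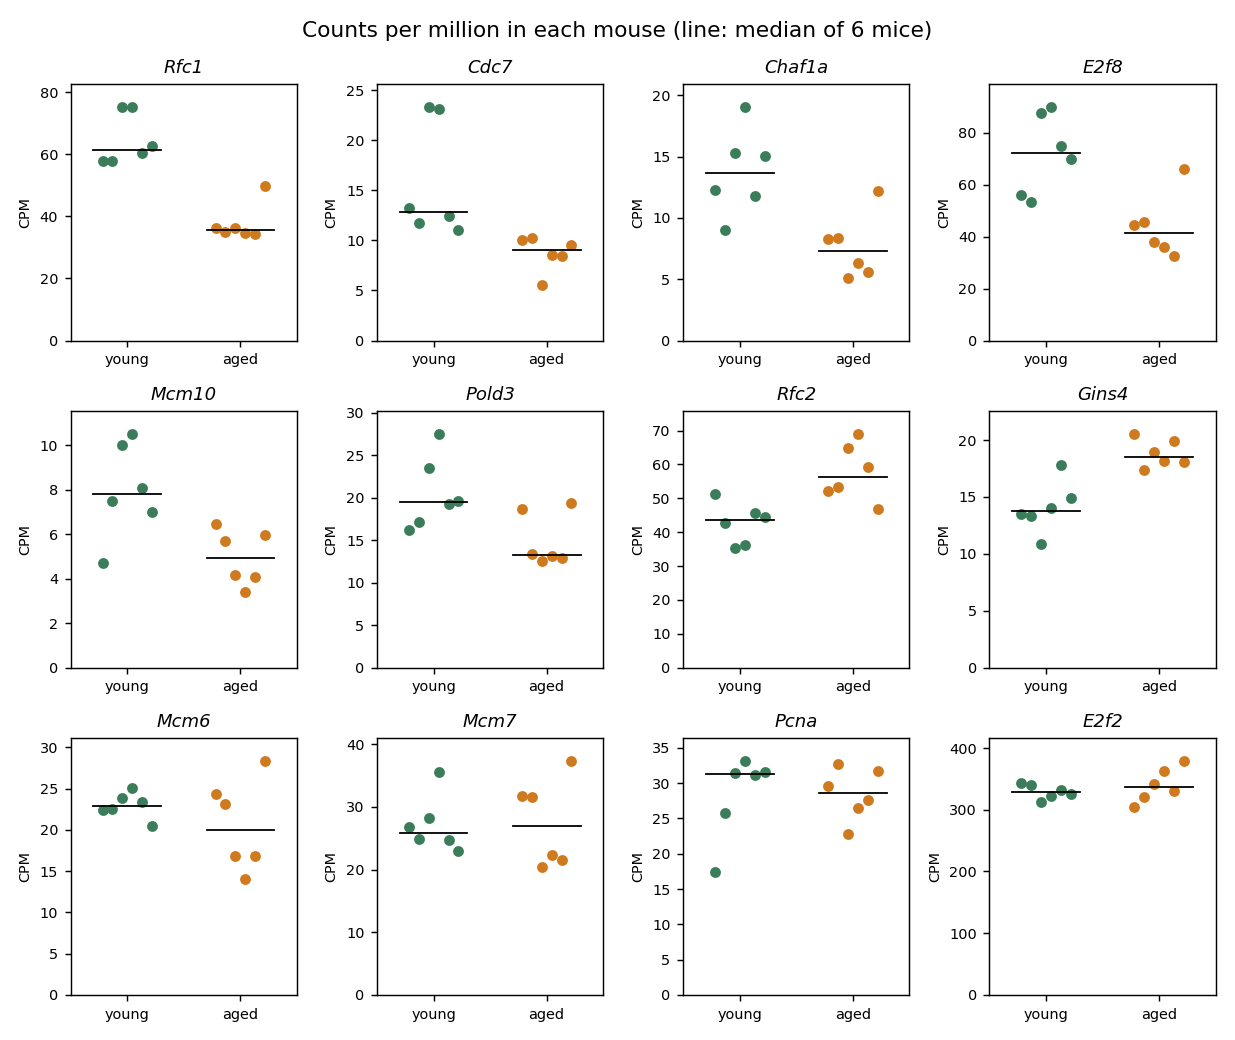
CPM in each of 6 young (green) and 6 aged (orange) mice, ordered by mouse number from left to right, for 12 members; lines are medians and each axis starts at 0. Rfc1 and Cdc7 do not overlap between the ages, Rfc2 and Gins4 are higher in aged mice, and Mcm6, Mcm7, Pcna and E2f2 overlap.

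No gene of deoxynucleotide supply was called, of 5 tested, beside 23% of all genes called lower and 22.4% called higher. Rrm1 and Rrm2, the subunits of ribonucleotide reductase, were among the more abundant members. Rrm1 measured 48.8, 60.9 and 87 CPM in aged and 58.8, 67.3 and 72.1 CPM in young mice (-0.05, interval -0.33 to 0.24). Rrm2, the subunit that limits the enzyme in S phase, measured 44.5, 63.5 and 82.1 CPM against 58.8, 71.6 and 82.4 CPM (-0.20, interval -0.48 to 0.09). The aged mice spanned a wider range than the young ones in both.
Tyms, which makes thymidylate, had the largest fall of the group, at 5.67, 7.6 and 11 CPM in aged and 7.42, 10.5 and 11.8 CPM in young mice (-0.34, interval -0.73 to 0.04). Tk1, the S-phase thymidine kinase of the salvage route, had the largest rise and the smallest p, at 7.49, 10.9 and 13.2 CPM against 8.01, 8.49 and 10.8 CPM (0.28, interval -0.02 to 0.57, adjusted p = 0.113 in edgeR's quasi-likelihood test). Dut, which removes dUTP, measured 3.42, 5.99 and 8.03 CPM against 4.5, 4.71 and 7.1 CPM (0.17, interval -0.29 to 0.63). None of these differences alone passed, except that Tk1 was called higher without the aged mouse 4 (0.36) and after thinning of every library to the depth of the smallest (0.43).
The balance between the salvage and the synthesis enzyme did. The log2 ratio of Tk1 to Tyms was 0.44 ± 0.22 in aged and -0.17 ± 0.26 in young mice (SD, n = 6 each), and every aged mouse exceeded every young mouse. The difference was 0.61 (exact two-sided permutation test, p = 0.00216, adjusted p = 0.0115 over 16 ratios). With the length correction it was 0.27 and not called (exact permutation test, adjusted p = 0.157), the exons of Tk1 and Tyms being 1369 and 3808 bases long. The ratio of Rrm2 to Rrm1 differed by -0.14 and missed the threshold (exact permutation test, p = 0.0498, adjusted p = 0.0797).

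Among the genes of chromatin assembly and histone mRNA, 1 of 4 was lower, beside 23% of all genes. Chaf1a, the large subunit of CAF-1, which deposits histones behind the fork through PCNA (mm10 chr17:56040416-56068026, plus strand), measured 5.13, 7.27 and 12.2 CPM in aged and 9, 13.7 and 19 CPM in young mice. Apart from the aged mouse 7, at 12.2 CPM, the aged mice lay below all young mice. Chaf1a had a log2 fold change of -0.85 (SE 0.21, adjusted p = 0.00481 in edgeR's quasi-likelihood test), and the mean of the aged mice was at 55.4% of the young level in the fit.
Chaf1b, the middle subunit, measured 3.03, 4.87 and 6.53 CPM against 3.77, 5 and 5.97 CPM in young mice (0.01, interval -0.39 to 0.40). The ratio of Chaf1a to Chaf1b was lower in aged mice, with a difference of -0.83 on the log2 scale (exact two-sided permutation test, p = 0.00649, adjusted p = 0.026 over 16 ratios). That call was lost without the aged mouse 1, 4 or 5 or the young mouse 5, where the difference ran from -0.85 to -0.76, and without the young mice 5 and 6 together (-0.64).
Uhrf1, which brings the maintenance DNA methyltransferase to newly copied DNA, measured 26.3, 33.6 and 44.5 CPM in aged and 29.9, 44.9 and 49.1 CPM in young mice (-0.31, interval -0.62 to 0.01, adjusted p = 0.101 in edgeR's quasi-likelihood test). Slbp, which binds the stem-loop of histone mRNAs, measured 28.6, 30.8 and 36.1 CPM against 33, 34.8 and 37.5 CPM (-0.15, interval -0.32 to 0.01, adjusted p = 0.113 in edgeR's quasi-likelihood test). Both overlapped between the ages. Uhrf1 was called lower without the aged mouse 7 (-0.40) or the young mouse 1 (-0.39).

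In the E2F and cyclin E module, the repressor E2f8 was lower and the activators passed no test. E2f8 (mm10 chr7:48866429-48881041, minus strand) measured 32.5, 41.2 and 65.8 CPM in aged and 53.2, 72.3 and 89.8 CPM in young mice. The aged mouse 7, at 65.8 CPM, lay among the young mice and the other aged mice lay below all of them. With age, E2f8 changed by a log2 fold change of -0.72 (SE 0.17, adjusted p = 0.00337 in edgeR's quasi-likelihood test).
E2f1, an activator, measured 5.96, 9.55 and 10 CPM in aged and 9.11, 10.2 and 13.4 CPM in young mice (-0.31, interval -0.64 to 0.01, adjusted p = 0.104 in edgeR's quasi-likelihood test). The ratio of E2f1 to E2f8 was higher in aged mice by 0.41 on the log2 scale and did not pass (exact permutation test, p = 0.0281, adjusted p = 0.0563 over 16 ratios).
E2f2 was the most abundant member at both ages, also per kilobase, at 71.7 CPM per kilobase in aged and 69.5 in young mice. It measured 305, 336 and 379 CPM in aged and 312, 328 and 343 CPM in young mice, and was not called (0.05, interval -0.09 to 0.18), with a sign that turned to -0.040 without TMM scaling. E2f1 stood at 3.49 and 4.32 CPM per kilobase. E2f2 thus stood above E2f1 and E2f8 at both ages.
Ccne1 and Ccne2 encode the E cyclins that drive entry into S phase with Cdk2. Ccne1 had the largest rise of the module, at 2.5, 2.93 and 3.7 CPM in aged and 2.14, 2.49 and 3.47 CPM in young mice (0.19, interval -0.20 to 0.57). Ccne2 measured 5.18, 8.79 and 11.1 CPM against 7.23, 10.8 and 12.8 CPM (-0.33, interval -0.72 to 0.05). Their ratio differed by 0.53 and missed the threshold (exact permutation test, p = 0.0238, adjusted p = 0.0544).

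Of the 16 ratios, 5 passed: Tk1 to Tyms, Dbf4 to Cdc7, Rfc1 to Rfc4, Chaf1a to Chaf1b and Mcm6 to Mki67. Mki67 encodes the proliferation marker Ki-67, which cycling cells carry, and is no member. It measured 63.5, 90.3 and 173 CPM in aged and 229, 311 and 674 CPM in young mice, without overlap, with a log2 fold change of -2.01 (SE 0.29, adjusted p = 0.000134 in edgeR's quasi-likelihood test). The log2 ratio of Mcm6 to Mki67 was -2.22 ± 0.26 in aged and -3.98 ± 0.58 in young mice (SD, n = 6 each), a difference of 1.77 (exact two-sided permutation test, p = 0.00216, adjusted p = 0.0115). The young mice 5 and 6 had the highest Mki67, at 674 and 598 CPM against 229 to 318 CPM in the other young mice, and without them the log2 fold change of Mki67 was -1.51 (adjusted p = 0.00026 in edgeR's quasi-likelihood test). The ratios of Mcm6 to Mki67 (1.42), Tk1 to Tyms (0.63) and Dbf4 to Cdc7 (0.46) were still called without them. Of 10 genes of mitosis, 4 were lower, beside 23% of all genes: Mki67, Top2a, Kif11 and Bub1. Top2a, Kif11 and Bub1 were not called without the young mice 5 and 6 (-0.43, -0.39 and -0.26), nor after the correction for gene length (-0.41, -0.41 and -0.39), in which Mki67 remained lower (-1.48). Top2a, the topoisomerase that untangles sister chromatids, measured 129, 188 and 376 CPM against 257, 294 and 417 CPM in young mice (-0.62, SE 0.22, adjusted p = 0.0315 in edgeR's quasi-likelihood test). Ccnb1, Ccnb2, Cdk1, Plk1, Cdc20 and Aurkb passed no test, with log2 fold changes from -0.05 to 0.17.

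The aged mice differed more among themselves than the young mice did in this module. The SD of log2 CPM was larger in aged than in young mice for 38 of the 51 members (74.5%) and for 4592 of the 9742 genes tested (47.1%). The median SD over the members was 0.32 in aged and 0.23 in young mice, and over all genes 0.19 and 0.21. These counts are descriptions, since the members of a mouse come from 1 library.
The spread came from whole mice that were low or high across most members. The median deviation of the members from their means over the 12 mice was -0.30, -0.33 and -0.21 on the log2 scale in the aged mice 4, 5 and 6. It was 0.17, 0.05 and 0.19 in the aged mice 1, 2 and 7. In the young mice it ran from -0.06 in mouse 1 to 0.23 in mouse 6. The aged mice 4, 5 and 6 lay below every young mouse in 29, 32 and 27 of the 51 members, and the aged mice 1, 2 and 7 in 5, 12 and 2. Conversely, the aged mice 1 and 7 lay above every young mouse in 13 members each.
The summed level of the 54 members was 1214, 1180 and 1356 CPM in the aged mice 1, 2 and 7 and 1017, 1039 and 1026 CPM in the aged mice 4, 5 and 6, against 1137 to 1364 CPM in young mice. The monocyte gene Ccr2 was also lower in the aged mice 4, 5 and 6 (5.03, 23.3 and 13.3 CPM) than in the aged mice 1, 2 and 7 (31.6, 62 and 52.4 CPM). So were F13a1 (2.57, 11.1 and 7.48 CPM against 18.6, 42.4 and 44 CPM), Mki67 (82.6, 74.2 and 63.5 CPM against 98.1, 102 and 173 CPM) and the macrophage gene C1qa (7.38, 5.18 and 15.5 CPM against 84.7, 29.4 and 21.2 CPM). Lower in these mice too were the neutrophil granule genes Ngp (34273, 38779 and 38753 CPM against 41570, 40011 and 44393 CPM) and Ltf (17457, 20187 and 18498 CPM against 20970, 21462 and 26842 CPM). Kit showed no such order (70.8, 53.4 and 62 CPM against 60.7, 64.7 and 62.4 CPM). What part the composition of the sorted cells has in the spread was not tested. Without the aged mouse 1 the count of lower members was 12, with Mcm2, Pola2, Prim1 and Slbp added to the 8, and without the aged mouse 4, 5 or 6 it was 5.

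**Figure D4:**
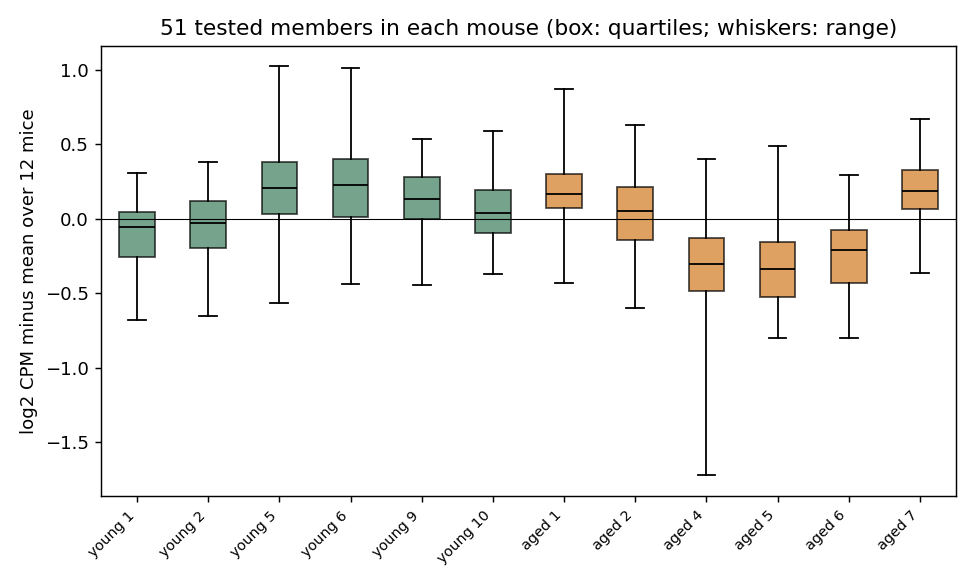
Log2 CPM of the 51 tested members in each mouse minus their mean over the 12 mice; boxes show quartiles and medians, whiskers the full range. The boxes of the aged mice 4, 5 and 6 lie below 0, with medians of -0.30, -0.33 and -0.21, while those of the aged mice 1 and 7 lie above 0.

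Fold changes with age followed the exon length of genes in this table. Spearman's correlation between log2 fold change and exon length was -0.48 across all 9742 genes and -0.61 across the 51 members, which share libraries and are not independent. The members called lower had exon lengths from 3002 to 7129 bases, and the members called higher, Rfc2 and Gins4, 1518 and 1364 bases. After a loess correction for length within each library, 9 members (17.6%) were lower and 1 was higher, beside 16.5% and 18.4% of all genes. Cdc7 (-0.84), Chaf1a (-0.81), E2f8 (-0.64), Mcm10 (-0.64), Rfc1 (-0.61) and Pold3 (-0.45) remained lower, 6 of the 8. Pole (-0.15), Pola1 (-0.31), Rfc2 (0.23) and Gins4 (0.18) were no longer called. Prim1 (-0.64), Slbp (-0.34) and Cdc45 (-0.28) became lower and E2f2 (0.22) higher. Of 14 ratios whose genes could both be corrected, 4 were called. The ratios of Tk1 to Tyms, Rfc1 to Rfc4 (-0.39) and Chaf1a to Chaf1b (-0.66, exact permutation test, adjusted p = 0.0505) were no longer called, and those of Dbf4 to Cdc7 (0.57) and Mcm6 to Mki67 (1.25) were. The ratios of Rrm2 to Rrm1 (-0.34, exact permutation test, adjusted p = 0.0202) and of E2f1 to E2f2 (-0.58, exact permutation test, adjusted p = 0.0227) became called with it.

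**Figure D5:**
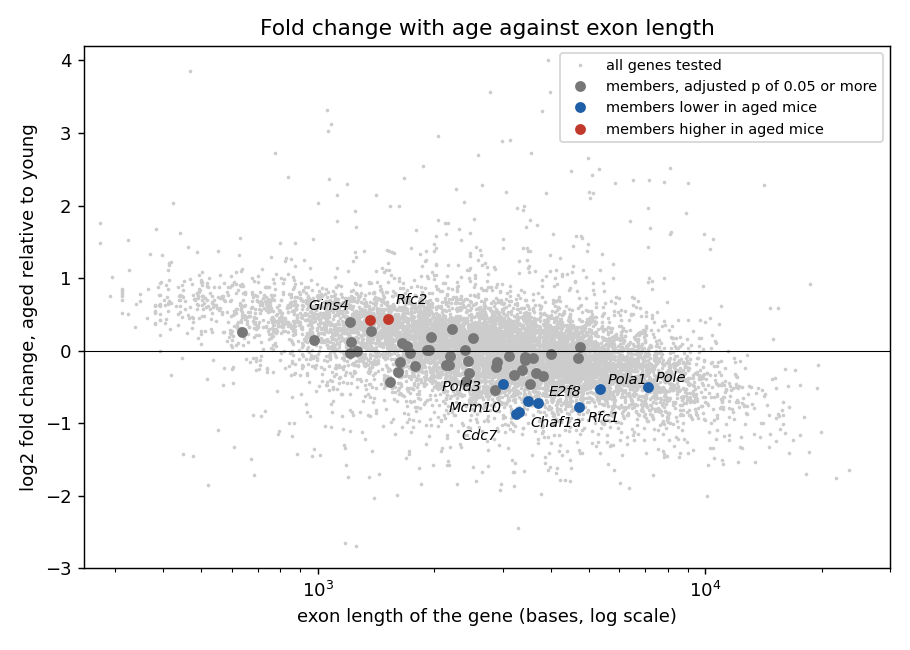
Log2 fold change of aged relative to young mice against exon length in bases (log scale) for all 9742 genes tested (light grey) and the 51 members. The lower members (blue) are 3002 to 7129 bases long and the higher ones (red) 1364 and 1518 bases, along the downward slope of all genes.

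The wider replication pathway was read from 84 further genes listed by name, of which 78 were tested. Of these 17 were lower and 6 higher, or 21.8% lower, close to the 23% of all genes. The median log2 fold change was -0.09. With the length correction 10 were lower, beside 16.5% of all genes. Without the young mice 5 and 6 10 were lower and 3 higher, beside 17.9% and 14.1% of all genes. Of 26 firing and fork factors 9 were lower, 4 with the length correction and 5 without the young mice 5 and 6. Ticrr, the partner of TopBP1 in loading Cdc45, had the largest fall, at 10.4, 12.7 and 17.9 CPM in aged and 20.2, 21.2 and 36.3 CPM in young mice, without overlap (-0.88, SE 0.18, adjusted p = 0.00164 in edgeR's quasi-likelihood test), and was still called at -0.51 with the length correction. Top1, which relaxes supercoils ahead of the fork, had the smallest p, at 68.4, 77.6 and 120 CPM against 123, 141 and 159 CPM (-0.78, SE 0.12, adjusted p = 0.000194 in edgeR's quasi-likelihood test). Atad5, which unloads PCNA, Clspn, which links fork and checkpoint, Wdhd1, Topbp1, Orc4, Dna2 and Mcmbp were lower too, with log2 fold changes from -0.81 to -0.14. Of these 7 genes Clspn alone was called with the length correction (-0.62), and Clspn, Atad5 and Orc4 were called without the young mice 5 and 6. Pold4, the small subunit of polymerase δ, was higher (0.23), but not after the length correction (-0.17, adjusted p = 0.131 in edgeR's quasi-likelihood test). Rnaseh2a had the largest rise and was not called (0.39, SE 0.28, adjusted p = 0.269 in edgeR's quasi-likelihood test).

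Nucleotide metabolism outside the members had no lower gene of 16 tested and 3 higher ones, beside 23% and 22.4% of all genes. Nme1, a nucleoside diphosphate kinase, had the largest rise and the smallest p, at 2.99, 3.8 and 6.36 CPM in aged and 1.22, 1.73 and 2.34 CPM in young mice, without overlap (1.23, SE 0.23, adjusted p = 0.000811 in edgeR's quasi-likelihood test). The salvage kinases Tk2 (0.39) and Dck (0.28) were also higher, Dck not without the young mice 5 and 6 (0.15).
Of the E2F, retinoblastoma and cyclin-dependent kinase genes, 4 of 17 were lower, beside 23% of all genes, and 2 higher. E2f7, the second atypical repressor, had the largest fall, at 6.47, 9.78 and 12.9 CPM in aged and 12.9, 15.9 and 22.8 CPM in young mice (-0.75, SE 0.19, adjusted p = 0.0053 in edgeR's quasi-likelihood test), a value beside that of E2f8 (-0.72). Cdk6, a kinase of G1, had the smallest p, at 11.3, 13.4 and 17.3 CPM against 19.1, 20.3 and 22.1 CPM, without overlap (-0.55, SE 0.11, adjusted p = 0.000978 in edgeR's quasi-likelihood test). Ccnd2, which encodes a cyclin partner of Cdk6, had the largest rise, at 15, 22.3 and 55.6 CPM against 7.05, 11.8 and 18.2 CPM (1.20, SE 0.31, adjusted p = 0.00604 in edgeR's quasi-likelihood test). The phosphatase Cdc25a (-0.54) and Rb1 (-0.19) were lower and Ccnd3 (0.25) was higher. Of these Cdc25a alone was called with the length correction and without the young mice 5 and 6, Rb1 being at -0.02 and -0.14 and Ccnd3 at 0.18 in both.
Of 10 checkpoint genes, 2 were lower, beside 23% of all genes. Rad9a, a part of the 9-1-1 checkpoint clamp, had both the largest fall and the smallest p (-0.53, SE 0.14, adjusted p = 0.00772 in edgeR's quasi-likelihood test), at 18, 18.6 and 22.8 CPM against 19.5, 25.2 and 38.7 CPM in young mice. Without the young mice 5 and 6 Rad9a was at -0.30 and still called. Rad17, its loader, was lower (-0.22), though not without the young mice 5 and 6 (-0.20), and Hus1, another clamp part, had the largest rise without a call (0.19), and was called higher with the length correction (0.36, adjusted p = 0.0343 in edgeR's quasi-likelihood test). Of 9 chromatin genes, 2 were lower, again beside 23% of all genes. Hells, a remodelling ATPase, measured 2.56, 4.65 and 5.48 CPM in aged and 5.67, 7.32 and 9.55 CPM in young mice, without overlap (-0.78, SE 0.19, adjusted p = 0.00424 in edgeR's quasi-likelihood test). Dnmt1, the methyltransferase that Uhrf1 recruits, was lower as well (-0.49, adjusted p = 0.0135 in edgeR's quasi-likelihood test), but was not called with the length correction (-0.20) or without the young mice 5 and 6 (-0.39). Asf1a, a histone chaperone, had the largest rise and was not called (0.22).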

How the data were processed

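The authors deposited raw counts of fragments, unscaled, which featureCounts 2.0.0 had assigned to exons of a UCSC annotation of mm10, by strand and in pairs, from alignments with a mapping quality of 60 or more. The aligner is not given in the sources used here. All 12 columns were matched to mice by name, and 0 columns were left unused. GC content came from GENCODE M21 transcripts, as no whole-genome sequence was used. The members and lists were chosen with earlier results of these data known.

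Genes were filtered with filterByExpr, libraries scaled by TMM, and aged and young mice compared with edgeR 4.0.16 (glmQLFit, glmQLFTest) in R 4.3.3, with Benjamini-Hochberg adjustment over 9742 genes and a threshold of 0.05. Intervals are 95% intervals from the SE and degrees of freedom of that fit. For the 16 ratios, log2 CPM (prior count 2) were compared by exact two-sided permutation tests over mice, adjusted over the ratios. Alternatives were DESeq2 1.42.0, limma-voom (limma 3.58.1), other scalings, filters, length (loess span 0.5) and GC corrections, thinning to 4613239 fragments, a replicate block, each mouse left out and the young mice 5 and 6 left out together. The fit was tested on simulated data. All members are described by role. Further pathway genes named are the largest fall, the largest rise and the smallest p of each list, plus some called genes chosen after their values were seen. A gene that this rule names is not reported here. Promoters are from RefSeq on GRCm38.p6, the assembly of mm10. p-values measure the spread between these mice, and the biological coefficient of variation was 15.7%. Genes that share sequence with near-identical copies are undercounted under that mapping quality filter.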

Additional observations from a re-analysis of the deposited data

Results flagged for a closer look

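Within each age, the highest or lowest of the 6 mice was compared with its neighbour, for the 51 tested members and the named pathway genes, in 130 groups of mice. In 8 of them a mouse stood apart by a gap, as a share of the range, above Dixon's 95% critical value, which chance passes in about 1 of 20 groups. The aged mouse 7, which had the largest library, gave 5 of the 8, each as the highest aged value. They were Gmnn at 7.52 CPM, Rfc1 at 49.9 CPM, Mki67 at 173 CPM, Top1 at 120 CPM and Top2a at 376 CPM. Without this mouse the log2 fold changes by edgeR's quasi-likelihood test were -0.88 for Rfc1, -2.25 for Mki67, -0.91 for Top1 and -0.87 for Top2a, each still called lower, and -0.02 for Gmnn, where the sign turned.

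The aged mouse 1 stood apart in Ccnd2, at 55.6 CPM, and without it the log2 fold change was 0.83 (adjusted p = 0.00744 in edgeR's quasi-likelihood test). The young mouse 6 stood apart in Tk1, at 10.8 CPM, and the young mouse 10 in Dut, at 7.1 CPM. Neither gene was called with or without that mouse.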

How the results depend on the processing

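DESeq2, limma-voom and a minimum of 10 counts in every mouse kept all 8 lower and both higher members. The count of lower members was 7 with upper quartile factors or without a filter and 10 without TMM factors, which moved the median of all genes from 0.01 to -0.08 and the calls over all genes from 2185 higher and 2240 lower to 1682 and 2762. The length correction gave 9 lower members, 1 higher member and 10 lower genes of the further pathway list (17 otherwise). Leaving out each mouse gave 5 to 12 lower members, with 5 without the aged mouse 4, 5 or 6 or the young mouse 5 and 12 without the aged mouse 1, and 3 to 7 called ratios, with 3 without the aged mouse 1, 4 or 5 or the young mouse 5. Cdc7, Chaf1a, Rfc1, E2f8, Mcm10, Rfc2 and Gins4 kept their calls whichever single mouse was left out, and Rfc2 and Gins4 lost theirs with the length correction. Without the young mice 5 and 6 together, chosen after seeing the data, 4 members were lower and 2 higher, 10 genes of the further list were lower and 3 ratios were called. Thinning left 2 called ratios, Tk1 to Tyms and Mcm6 to Mki67. E2f2, never called lower, had a log2 fold change of -0.040 without TMM factors, -0.0100 with the GC correction, -0.013 in the fit with a replicate block and -0.010 in the same 8 mice without the block.

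Both ages share the mouse numbers 1, 2, 5 and 6, and deviations of same-numbered mice correlated at -0.25 to -0.07. None of these aged mice correlated best with the young mouse of its own number. So few correlations cannot exclude that the numbers pair the mice. A replicate block over these 8 mice gave 5 lower and 2 higher members, against 8 and 2 in the same mice without it. The causes of these changes were not tested. Depth limits the genes under a few CPM, such as Orc1, Gins1 and Gins2, which were not tested.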
